A study of Saccharomyces cerevisiae with 4 samples.

Results

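The subject is the set of Ty retrotransposon reading frames of Saccharomyces cerevisiae, chosen as every row of the FPKM table that the RefSeq R64 annotation calls a gag protein or a gag-pol fusion protein. There are 91 such frames among 7126 features. Ty1 has 32 Gag frames (TYA) and 31 Gag-Pol frames (TYA-TYB), Ty2 has 10 of each, Ty3 has 1 Gag and 2 Gag-Pol frames, and Ty4 has 2 Gag and 3 Gag-Pol frames. No Ty5 frame carries such an annotation. The rows YIL082W, YIL080W and YCL076W of the FPKM table also carry no such annotation and were left out. The frames were sorted by family and by kind, and the frames listed at exactly 0 were counted in each of the 4 libraries. The family was that of the annotated element around the frame. YDR170W-A and YLR035C-A lie in no annotated full element. They were put in Ty1 because the frame sharing most of their stretches of 30 bases was a Ty1 frame (60.4% and 93.1% shared).

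The study sequenced ribosome-depleted total RNA from budding yeast without the DEAD-box RNA helicase Dbp2 and from wild type, with 2 libraries of each genotype. The dbp2null strain, BTY115, is MATa with DBP2 replaced by KanMx, and it also carries his3Δ0, ura3Δ0, leu2Δ0, TRP1, met- and lysΔ. The wild-type strain is MATa with met15Δ0, ura3Δ0, his3Δ1 and leu2Δ0. Both were grown in rich medium (YPD) at 30 °C to an OD600 of about 0.4, and the library kit was used in a changed form that keeps short RNAs. Deletion of DBP2 and strain background cannot be told apart, and whether these strains carry the same Ty copies at the same places as the reference genome was not analysed here.

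Ty elements are long terminal repeat retrotransposons: they copy themselves through an RNA that is packaged in virus-like particles, reverse transcribed and integrated. Gag is the coat protein of the particle, and Gag-Pol, made by a programmed shift of the ribosome's reading frame near the end of Gag, adds protease, integrase and reverse transcriptase. One full-length RNA therefore holds both frames, and in the annotation the Gag frame usually lies within the span of the Gag-Pol frame on the same strand. Ty1 RNA is among the more abundant messenger RNAs of laboratory yeast, Ty3 is induced by mating pheromone, and most Ty copies sit close to tRNA genes, where integrase inserts them. Here 36 of 46 annotated elements that hold a frame lay within 1000 bases of a tRNA gene (median distance 190.5 bases), and both Ty3 elements lay 16 and 18 bases from one.

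The sequences are shown because near-identical copies and overlapping frames bear on every value that follows. Of the 45 Gag frames, 41 lie within a Gag-Pol frame. At a threshold of 95% identity, 28 Ty1 Gag frames formed one group (pairwise identity 97.6% to 100%), 3 Ty1 Gag frames formed another, YNL284C-A stood alone, and the 10 Ty2 Gag frames formed a group of their own. The first 120 bases of a frame from each group follow, 5′ to 3′ on the coding strand, from the RefSeq R64 genome. Capitals mark bases that differ from YLR157C-A. The frames are YLR157C-A (Ty1, chrXII:481482-481601, minus strand), YDR170W-A (Ty1, chrIV:803195-803314, plus strand), YNL284C-A (Ty1, chrXIV:102113-102232, minus strand) and YDR034C-C (Ty2, chrIV:519237-519356, minus strand).
YLR157C-A: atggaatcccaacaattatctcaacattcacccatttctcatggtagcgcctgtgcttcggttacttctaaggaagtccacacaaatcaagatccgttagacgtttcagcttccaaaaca
YDR170W-A: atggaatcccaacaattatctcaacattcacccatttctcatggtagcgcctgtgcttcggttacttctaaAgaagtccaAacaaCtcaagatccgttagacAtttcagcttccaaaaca
YNL284C-A: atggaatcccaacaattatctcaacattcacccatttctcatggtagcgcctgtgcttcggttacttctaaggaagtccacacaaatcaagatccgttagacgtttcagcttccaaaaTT
YDR034C-C: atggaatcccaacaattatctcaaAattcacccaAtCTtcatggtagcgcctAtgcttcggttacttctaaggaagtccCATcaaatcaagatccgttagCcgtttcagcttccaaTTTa

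Over these 120 bases YDR170W-A differs from YLR157C-A at 4 positions, YNL284C-A at 2 and the Ty2 frame YDR034C-C at 12. Over the whole Gag frame their identity to YLR157C-A is 87.2%, 91.0% and 66.3%, in that order. A window of 50 bases that occurs once in the genome made up a median of 1.79% of all such windows in a Ty frame, and 33 of the 91 frames had none. Of the 32 Ty1 Gag frames 19 had none, and the median window of a Ty1 Gag frame occurred 28 times. How the authors' processing shared reads among copies, or between a Gag frame and the Gag-Pol frame around it, is not given in the sources used here, so the values of single frames are uncertain.

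The place where the ribosome changes frame was looked for by its letters, on the coding strand alone, in the 67 bases around the end of each Gag frame that lies within a Gag-Pol frame. The heptamer CTTAGGC, known as the Ty1 and Ty2 frameshift site, was found in 29 of 29 Ty1 and 10 of 10 Ty2 frames, and GCGAGTT, known from Ty3, in the 1 Ty3 frame. The same search at the ends of 5917 other nuclear coding frames found CTTAGGC in 0.152% and GCGAGTT in 0.237%. In the Ty4 pair YHL009W-A and YHL009W-B the letters CTTAGGC are not in this window. Around the heptamer (in capitals) the 29 Ty1 frames hold 5 sequence versions, of which the version of YPR137C-B is in 14 frames and that of YLR157C-B in 10. These 2 versions differ at 3 of 55 bases. They are shown with the Ty2 and Ty3 windows, for YPR137C-B (chrXVI:808937-808991, minus strand), YLR157C-B (chrXII:480269-480323, minus strand), YDR034C-D (chrIV:518036-518090, minus strand) and YGR109W-B (chrVII:708438-708492, plus strand).
YPR137C-B, Ty1: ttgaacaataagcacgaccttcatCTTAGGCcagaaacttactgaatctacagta
YLR157C-B, Ty1: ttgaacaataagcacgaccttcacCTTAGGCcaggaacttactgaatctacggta
YDR034C-D, Ty2: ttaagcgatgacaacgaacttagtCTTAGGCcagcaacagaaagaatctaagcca
YGR109W-B, Ty3: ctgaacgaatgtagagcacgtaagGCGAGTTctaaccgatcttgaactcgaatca

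The values are FPKM, fragment numbers divided by feature length and library size, so levels can be set side by side between frames of different length. They hold no counts, and the depth of each library is unknown. DBP2 itself had 2.90 and 1.03 FPKM in the dbp2null libraries, against 213 and 199 FPKM in the wild-type libraries (log2 fold change -6.20, SE 0.35, limma adjusted p = 0.0225). HIS3 had 80.4 and 73.7 FPKM in the dbp2null libraries, against 60.9 and 78.9 FPKM in the wild-type libraries, although the labels give his3Δ0 for dbp2null. The wild-type label gives his3Δ1. LYS2 had 1.63 and 0.68 FPKM in dbp2null, labelled lysΔ, against 37.8 and 31.7 FPKM in wild type (called lower, limma adjusted p = 0.0458). MET17 had 31.5 and 22.5 FPKM in dbp2null, against 0.24 and 0.42 FPKM in wild type (called higher, limma adjusted p = 0.0481). The FPKM of all features summed to 5.01e+07 and 3.37e+06 in dbp2null libraries 1 and 2, against 5.29e+07 and 3.22e+07 in wild type, so that dbp2null library 2 stood apart. The correlation of log2(FPKM + 1) between libraries was 0.81 for dbp2null and 0.97 for wild type. The U2 spliceosomal RNA LSR1, which every cell uses, was listed at 0 in dbp2null library 2 and at 39212, 21171 and 25100 FPKM in dbp2null library 1 and wild-type libraries 1 and 2, so an exact 0 can be a failed estimate and Ty rows at 0 are described as listed at 0. Of all features, 424 and 451 were listed at 0 in dbp2null libraries 1 and 2, against 464 and 454 in wild type. All 6 markers of MATa cells were above 0 in all 4 libraries, and they summed to 17069 and 827 FPKM in dbp2null, against 25690 and 33172 FPKM in wild type. Of these, 5 had a negative log2 fold change (median of the 6 -1.08) and none was called. The pheromone gene MFA2 alone had 14777 and 347 FPKM in dbp2null, against 23641 and 30039 FPKM in wild type, and the receptor gene STE2 had 286 and 155 FPKM in dbp2null, against 218 and 222 FPKM in wild type.

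Among the groups of Ty frames, Ty1 Gag had the largest difference in listing between the genotypes. In bulk RNA, fewer cells with an RNA and less of it per cell cannot be told apart. Of the 91 Ty frames, 18 and 17 were listed at 0 in the dbp2null libraries, against 41 and 37 in the wild-type libraries. For Ty1 Gag alone, 6 and 4 of 32 frames were listed at 0 in dbp2null, against 28 and 25 of 32 in wild type. Between 18.7% and 45.1% of Ty frames were listed at 0 in a library, against 5.95% to 6.51% of all features. The Gag-Pol frames of Ty1 and Ty2 had no row at 0 in any library. Ty2 Gag had 9 and 10 of 10 frames at 0 in dbp2null, against 10 and 10 of 10 in wild type, the exception being YDR034C-C with 14.4 FPKM in dbp2null library 1.

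**Figure D1:**
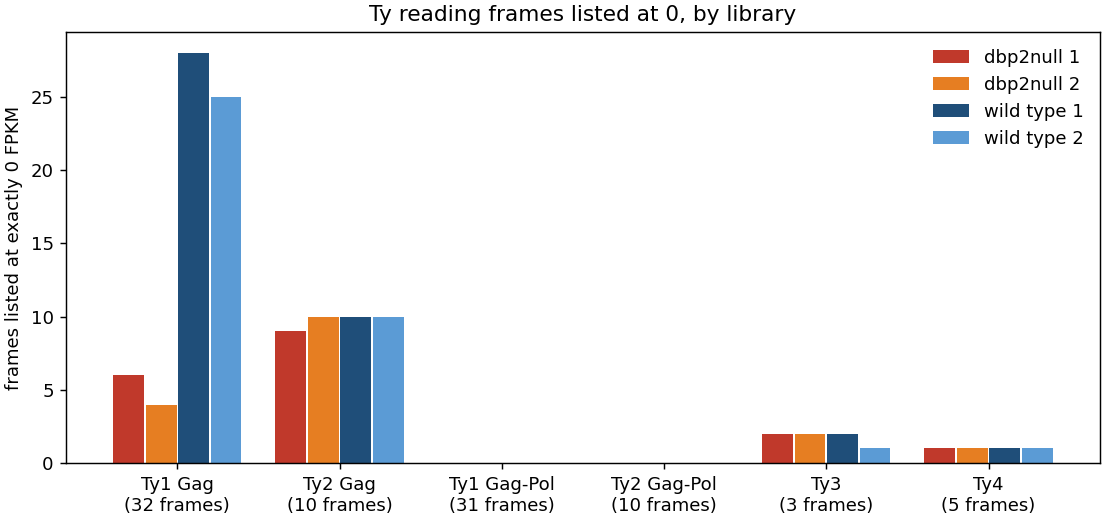
Number of Ty reading frames listed at exactly 0 FPKM (vertical axis) in each library, for 6 groups of frames (horizontal axis), with 1 bar per library. Ty1 Gag has 6 and 4 frames at 0 in the dbp2null libraries, against 28 and 25 in the wild-type libraries, whereas Ty1 and Ty2 Gag-Pol have none at 0.

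In all, 18 Ty frames were listed at 0 in both wild-type libraries and above 0 in both dbp2null libraries, and none the other way round. All 18 are Ty1 Gag frames that lie within a Gag-Pol frame. Among all features 0.477% showed this listing (34 of 7126), so the Ty1 Gag frames make up 18 of those 34. A further 50 Ty frames were above 0 in all 4 libraries, 14 were listed at 0 in all 4, and 9 had a mixed listing.

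Whether the Gag frame lies within a Gag-Pol frame went with its listing. Of 41 Gag frames within a Gag-Pol frame, 1 was above 0 in all 4 libraries, against 4 of 4 Gag frames that overlap no Gag-Pol frame. YAR010C, a Ty1 Gag frame on chromosome I whose Gag-Pol partner YAR009C is annotated apart from it, had 90.2 and 96.7 FPKM in dbp2null, against 113 and 87.6 FPKM in wild type. YLR256W-A, a Ty1 Gag frame on chromosome XII, had 89.3 and 91.2 FPKM in dbp2null, against 111 and 87.9 FPKM in wild type. In both frames the 2 genotypes overlapped (log2 fold changes -0.09 and -0.13, limma adjusted p = 0.816 and 0.741). YDR170W-A, a Ty1 Gag frame of a mutant element, had 34.2 and 35.8 FPKM in dbp2null, against 26.4 and 25.1 FPKM in wild type. Its groups did not overlap, but it did not pass the test (log2 fold change 0.43, SE 0.16, limma adjusted p = 0.131). The 1 frame within a Gag-Pol frame that was above 0 throughout, YGR161C-C, had 37.8 and 44.9 FPKM in dbp2null, against 35.3 and 28.0 FPKM in wild type (log2 fold change 0.38, SE 0.21, limma adjusted p = 0.259).

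**Figure D2:**
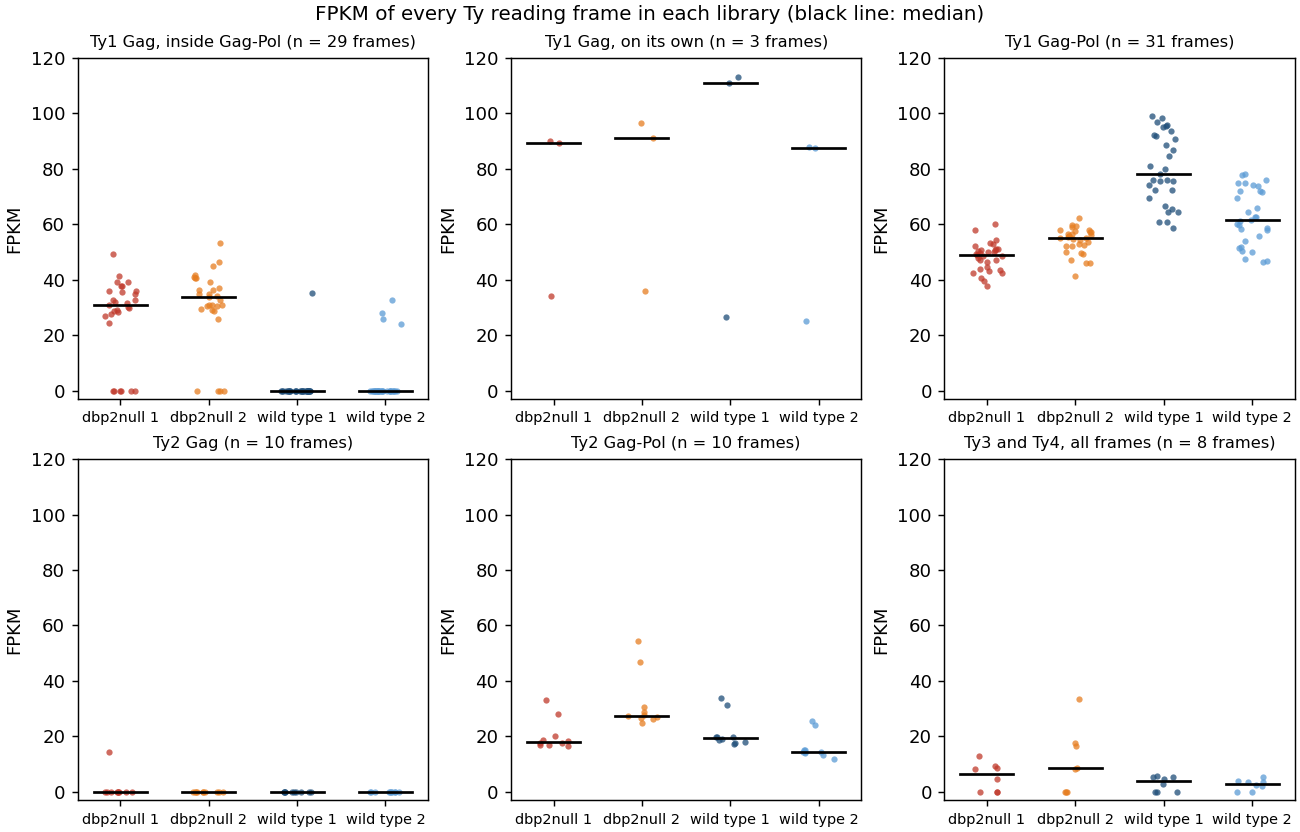
FPKM (vertical axis) of each of the 91 Ty reading frames as a point, by library (horizontal axis), in 6 panels by family and kind, with a black line at the median. Most Ty1 Gag frames within Gag-Pol are above 0 in dbp2null and at 0 in wild type. The 3 Ty1 Gag frames on their own are above 0 in all 4 libraries. The median of Ty1 Gag-Pol lies lower in dbp2null than in wild type.

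In the fit across all features, 18 Ty frames were called higher in dbp2null and none lower. They are the 18 Ty1 Gag frames above 0 in both dbp2null libraries and at 0 in wild type, so the test restates that listing, a 0 can be a failed estimate, and no fold change is given. Their adjusted p-values (limma, Benjamini-Hochberg over 6781 features) ran from 0.0425 to 0.0481. Among all tested features 1.19% were called (81 of 6781), of which 66 were higher (0.973%) and 15 lower (0.221%) in dbp2null. Of the 76 Ty frames with a mean of at least 1 FPKM that entered the fit, 22 had an unadjusted p below 0.05 (28.9%, against 37.9% of all tested features). Of the 29 Ty1 Gag frames in the fit, 22 passed that minimum through their dbp2null values alone, the 18 called ones among them. The calls lay close to the threshold of 0.05. All 18 calls were lost with a pseudocount of 0.1 FPKM (adjusted p 0.064 to 0.067), with a minimum mean of 10 FPKM, with median centring (0.0618 to 0.0743), with quantile normalization, and without wild-type library 1 (0.0533) or 2 (0.0543).

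YLR157C-A, the called Gag frame with the lowest adjusted p, is on chromosome XII (480279 to 481601, minus strand) and had 41.2 and 46.4 FPKM in dbp2null and was listed at 0 in both wild-type libraries (limma adjusted p = 0.0425). The other 17 lay between 27.1 and 39.3 FPKM in dbp2null library 1 and between 29.1 and 41.7 FPKM in dbp2null library 2. The values of these frames stood in a narrow band and none was close to 0: among the 29 Ty1 Gag frames within Gag-Pol, the lowest value above 0 was 24.5 and 26.0 FPKM in the dbp2null libraries, against 35.3 and 24.2 FPKM in wild type. With wild type listed at 0, the size of the difference follows the dbp2null values alone. In that order the first 12 called frames were YLR157C-A, YER137C-A, YGR038C-A, YPR137C-A, YDR098C-A, YOL103W-A, YDR210C-C, YMR051C, YPL257W-A, YBR012W-A, YHR214C-C and YML040W. All of them encode Ty1 Gag.

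The remaining Ty1 Gag frames within Gag-Pol did not follow that listing. The 3 such frames outside the large identity group, YBL005W-A, YMR046C and YNL284C-A, were listed at 0 in all 4 libraries. Of their windows of 50 bases 10.9% to 34.5% were unique, against 0 to 7.85% in the 18 called frames. Unique sequence did not set them apart from every other frame, since YNL054W-A had 12.8% unique windows and 32.6 and 28.8 FPKM in dbp2null, against 0 and 24.2 FPKM in wild type. Another 7 frames were mixed. YER159C-A, for example, had 35.5 and 39.3 FPKM in dbp2null, against 0 and 25.8 FPKM in wild type.

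Frames of identical sequence were listed with different values in the same library. YAR010C and YPR137C-A have the same 1323 bases, yet YPR137C-A had 37.7 and 41.7 FPKM in dbp2null and was listed at 0 in both wild-type libraries, where YAR010C had 113 and 87.6 FPKM. YGR161C-C and YDR316W-A are also identical, and YDR316W-A had 28.3 and 29.1 FPKM in dbp2null, against 0 and 0 in wild type, where YGR161C-C had 35.3 and 28.0 FPKM. In the set of 4 identical frames that holds YLR157C-A, one member, YDR365W-A, was listed at 0 in dbp2null library 1 and at 30.8 FPKM in dbp2null library 2. How the reads of identical copies were shared out was not tested.

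**Figure D3:**
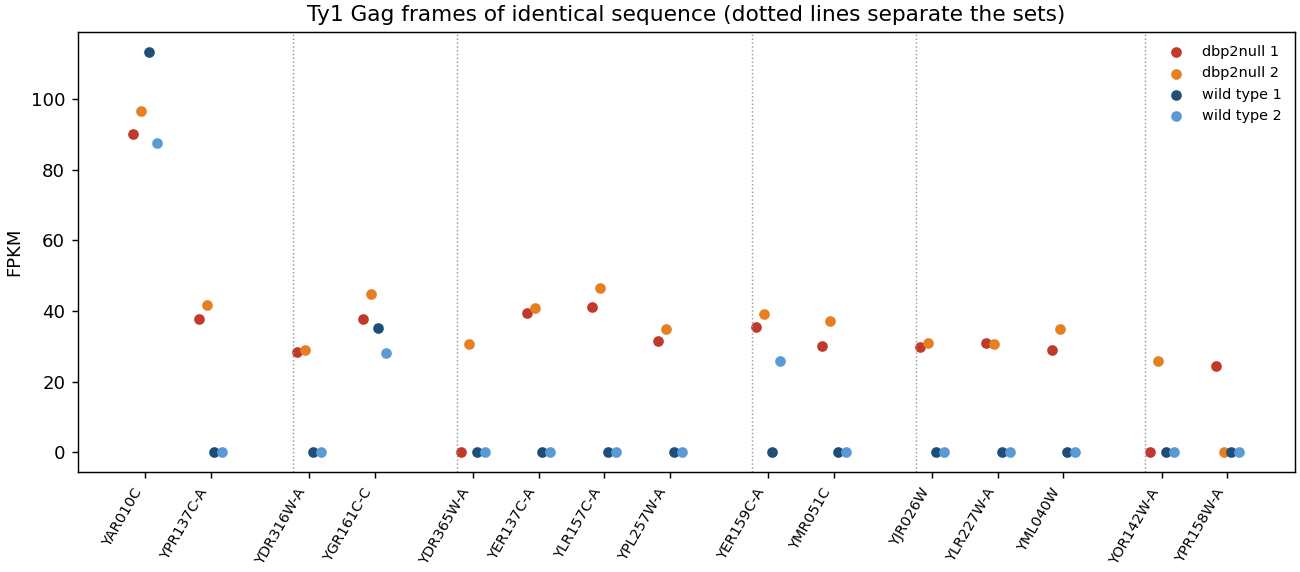
FPKM (vertical axis) in the 4 libraries (colours) of Ty1 Gag frames (horizontal axis) that share the same sequence within each set, with dotted lines between the 6 sets. YAR010C has 90.2 and 96.7 FPKM in dbp2null, against 113 and 87.6 FPKM in wild type, whereas its identical copy YPR137C-A has 37.7 and 41.7 FPKM in dbp2null, against 0 and 0 in wild type.

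The Ty1 Gag-Pol frames, which encode the protease, integrase and reverse transcriptase, stood the other way. Their median was 48.9 and 55.1 FPKM in dbp2null, against 78.3 and 61.4 FPKM in wild type. In 26 of 31 frames both dbp2null values were below both wild-type values (20.7% of all tested features showed this), and in 5 the genotypes overlapped. A median of 0.958% of the windows of 50 bases in these frames were unique, so the 31 frames cannot be read as separate observations. The median log2 fold change was -0.45 (range -0.68 to -0.17), against 0.28 over all tested features. None of the 31 was called by limma, and 1 had an unadjusted p below 0.05. With median centring and with quantile normalization all 31 were negative too (medians -0.79 and -0.40). Rescaled to the summed FPKM of nuclear protein-coding genes, all 31 were positive, but their median of 0.36 was again below that of all features, 1.08. That scaling lifts every feature of dbp2null library 2, where the protein-coding sum was 6.82e+05 FPKM, against 2.19e+06 to 2.30e+06 FPKM in the other 3 libraries.

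YER138C, the Ty1 Gag-Pol frame with the highest level in wild-type library 1, had 53.2 and 58.0 FPKM in dbp2null, against 99.1 and 77.8 FPKM in wild type (log2 fold change -0.65, SE 0.25, limma adjusted p = 0.134). YLR157C-B, which holds the Gag frame YLR157C-A, had 50.9 and 55.1 FPKM in dbp2null, against 96.9 and 75.9 FPKM in wild type (log2 fold change -0.68, SE 0.25, limma adjusted p = 0.121). In both frames the dbp2null values lay below the wild-type values. The log2 fold changes were -0.99 for YER138C and -1.02 for YLR157C-B with median centring, and 0.16 and 0.13 after the rescaling to protein-coding genes, where the median of all features was 1.08.

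Ty1 Gag-Pol levels were also read by sequence version at the frameshift site, as a description with no test. The 10 frames with the version of YLR157C-B had a median of 50.9 and 57.3 FPKM in dbp2null, against 93.7 and 73.1 FPKM in wild type. The 14 frames with the version of YPR137C-B had a median of 47.5 and 55.0 FPKM in dbp2null, against 75.9 and 59.9 FPKM in wild type. In wild-type library 1 the first set ran from 86.7 to 99.1 FPKM and the second from 58.7 to 98.5 FPKM, so that the ranges overlapped. In dbp2null library 2 the first set ran from 54.9 to 59.8 FPKM and lay within the range of the second, 46.0 to 62.1 FPKM. The 5 frames of the other 3 versions ran from 64.4 to 75.7 FPKM in wild-type library 1. Whether the window or other bases of these copies go with the level was not tested.

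Because the Gag frame and the Gag-Pol frame around it lie on the same RNA, the FPKM of both rows was also added for each element. FPKM is divided by the length of each row, usually 1323 bases for Ty1 Gag and 5269 for Ty1 Gag-Pol. The sum is therefore not a total for the element and depends on how reads were shared between the rows. For the 29 Ty1 elements whose frames overlap, the sum had a median of 78.8 and 88.4 FPKM in dbp2null, against 81.2 and 69.4 FPKM in wild type. In that sum the genotypes overlapped in 18 elements, dbp2null lay above wild type in 9, and below it in 2. Across all features of the same fit, dbp2null lay above wild type in 49.8% and below it in 20.5%. The median log2 fold change of the 29 sums was 0.12, against 0.28 over all features. Of 43 elements of all families with both frames, none was called by limma (3 had an unadjusted p below 0.05), against 0.207% of all features in that fit (14 of 6752). For Ty1 the adjusted p-values of the sums ran from 0.223 to 0.995. The Gag row held a median of 38.4% and 37.6% of the sum in dbp2null, against 0 and 0 in wild type. For the element of YLR157C-A and YLR157C-B the sum was 92.2 and 102 FPKM in dbp2null, against 96.9 and 75.9 FPKM in wild type, and the genotypes overlapped (log2 fold change 0.17, SE 0.28, limma adjusted p = 0.667).

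**Figure D4:**
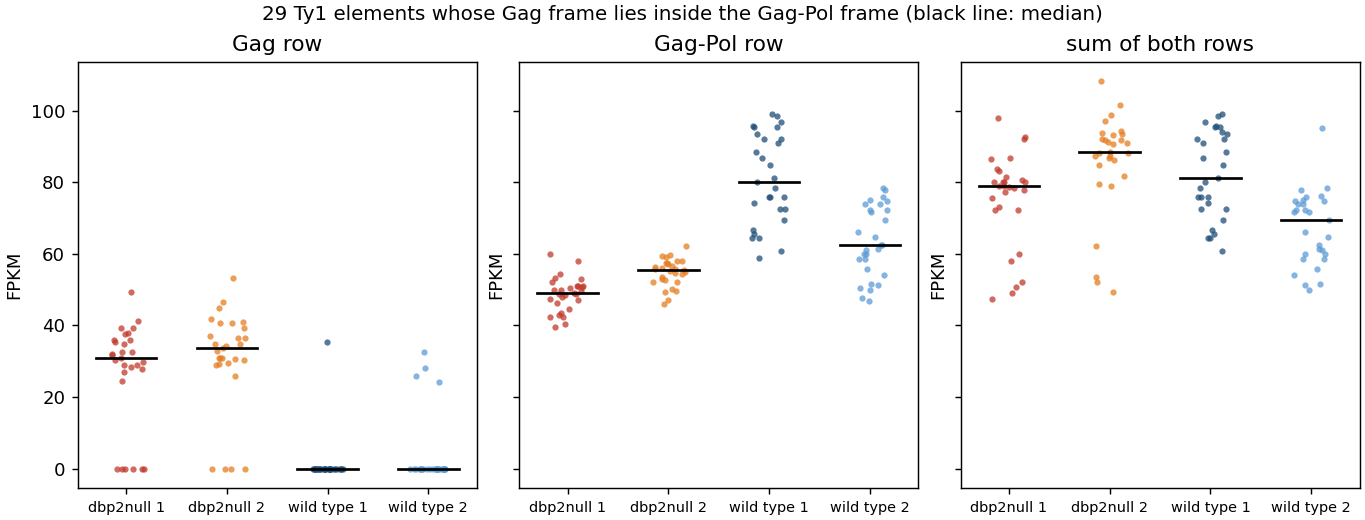
FPKM (vertical axis) of the 29 Ty1 elements with overlapping frames, by library (horizontal axis), for the Gag row, the Gag-Pol row and the sum of both rows, with a black line at the median. The Gag median is higher in dbp2null than in wild type, where it is a listed 0. The Gag-Pol median is lower in dbp2null, with no Gag-Pol frame called and some overlapping between the genotypes. The sums have medians of 78.8 and 88.4 FPKM in dbp2null, against 81.2 and 69.4 FPKM in wild type.

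The ratio of Gag-Pol between the 2 libraries of 1 genotype was set beside the listing of Gag in them. In wild type, 25 Ty1 elements had Gag at 0 in both libraries, and their Gag-Pol value in library 2 was 0.770 to 0.821 times that in library 1. Another 3 elements had Gag above 0 in wild-type library 2 alone, and there the ratio was lower, at 0.694 for YER160C, 0.726 for YNL054W-B and 0.705 for YPR158C-D. In dbp2null, 22 elements had Gag above 0 in both libraries, and their Gag-Pol ratio of library 2 to library 1 was 1.08 to 1.26. It was 1.30 for YPR158W-B, whose Gag row was above 0 in library 1 alone. It was 0.996 to 1.07 for the 3 elements whose Gag row was above 0 in library 2 alone, and 1.00 to 1.13 for the 3 elements with Gag at 0 in both. In dbp2null the ratios of YJR029W (1.02) and YOR142W-B (1.07) lay within the range of elements with no change in the listing of Gag. Those of YPR158W-B (1.30) and YDR365W-B (0.996) lay outside it. These elements were chosen after their values were seen, and the ratios are a description with no test.

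Summed over all frames of the family, Ty1 Gag had 986 and 1119 FPKM in dbp2null, against 286 and 311 FPKM in wild type, a log2 ratio of 1.82. Over the 4 Ty1 Gag frames that were above 0 in every library the log2 ratio was 0.015. Ty1 Gag-Pol summed to 1496 and 1676 FPKM in dbp2null, against 2483 and 1942 FPKM in wild type (log2 ratio -0.48). As a share of the protein-coding sum this was 0.0651% and 0.246% in dbp2null, against 0.113% and 0.0868% in wild type, so that dbp2null library 1 lay below both wild-type libraries and dbp2null library 2 above both. All 91 frames together summed to 2742 and 3199 FPKM in dbp2null, against 3007 and 2435 FPKM in wild type. These sums, which also mix rows of different length, overlapped between the genotypes.

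Ty2, a close relative of Ty1 with the same frameshift heptamer, had its Gag rows at 0 in all libraries except dbp2null library 1, where 1 of 10 was above 0. Its Gag-Pol frames had a median of 18.1 and 27.4 FPKM in dbp2null, against 19.4 and 14.2 FPKM in wild type, with a median log2 fold change of 0.43. That direction turned with quantile normalization, where the median was -0.32 (8 of 10 frames negative). The median stayed positive but was smaller with median centring (0.095) and without dbp2null library 2 (0.14). In 2 of 10 frames both dbp2null values lay above both wild-type values (49.8% of all tested features did) and in 8 the genotypes overlapped. None was called by limma, and none had an unadjusted p below 0.05. YOR192C-B had 33.2 and 54.5 FPKM in dbp2null, against 33.9 and 25.4 FPKM in wild type. YDR034C-D had 28.0 and 46.7 FPKM in dbp2null, against 31.3 and 24.2 FPKM in wild type. These 2 frames had the highest levels of the family, and in both the genotypes overlapped. The third, YOR343W-B, had 19.9 and 30.4 FPKM in dbp2null, against 18.7 and 14.2 FPKM in wild type, with no overlap (log2 fold change 0.57, SE 0.28, limma adjusted p = 0.209).

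Ty3 and Ty4 rows were low. The Ty3 Gag-Pol frame YGR109W-B had 13.0 and 33.5 FPKM in dbp2null, against 5.44 and 2.44 FPKM in wild type. The dbp2null values lay above the wild-type values, and the difference did not pass the test (log2 fold change 2.22, SE 0.58, limma adjusted p = 0.0748). Its Gag frame YGR109W-A had 0 and 0 FPKM in dbp2null, against 0 and 3.40 FPKM in wild type. The other Ty3 Gag-Pol frame, YIL082W-A, and the Ty4 Gag frame YHL009W-A were listed at 0 in all 4 libraries. In Ty4, the Gag frame YJL114W had 9.10 and 8.32 FPKM in dbp2null, against 4.61 and 5.18 FPKM in wild type, with no overlap (log2 fold change 0.72, limma adjusted p = 0.222). The Ty4 Gag-Pol frame YHL009W-B had 8.17 and 16.4 FPKM in dbp2null, against 5.62 and 3.88 FPKM in wild type. YJL113W had 8.52 and 17.4 FPKM in dbp2null, against 5.27 and 3.51 FPKM in wild type. YPL060C-A had 4.43 and 8.70 FPKM in dbp2null, against 2.76 and 2.07 FPKM in wild type. In all 3 both dbp2null values lay above both wild-type values (49.8% of all tested features did), and none passed the test (log2 fold changes 1.09 to 1.32, limma adjusted p 0.121 to 0.320).

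Another group of low rows also had its highest sum in dbp2null library 2. The markers of the other mating type, alpha, summed to 52.2 and 70.4 FPKM in dbp2null, against 29.3 and 23.5 FPKM in wild type. MF(ALPHA)2 went the other way between the dbp2null libraries, with 24.7 and 20.2 FPKM. All 4 markers (MF(ALPHA)1, MF(ALPHA)2, STE3 and SAG1) had both dbp2null values above both wild-type values (49.8% of all tested features did), and none was called. Their part in the Ty3 and Ty4 values was not tested. With quantile normalization the sign of all 4 Ty4 frames tested was negative.

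No frame is annotated as a Ty5 gag or gag-pol protein. Near the left end of chromosome III the annotation has a pair of pseudogenes described as remnants of a Ty Pol protein, YCL075W (2126 to 2566) and YCL074W (2824 to 3750), which are not counted among the 91. YCL075W had 16.9 and 44.7 FPKM in dbp2null, against 3.73 and 1.33 FPKM in wild type (log2 fold change 3.11, limma adjusted p = 0.060). YCL074W had 21.1 and 78.9 FPKM in dbp2null, against 4.94 and 0.967 FPKM in wild type (log2 fold change 3.62, SE 0.84, limma adjusted p = 0.0672). In each of them both dbp2null values lay above both wild-type values (49.8% of all tested features did), and neither passed the test.

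Host genes known to act on Ty elements were read from the same fit: 42 genes in 6 roles (transcription factors, coactivators and chromatin factors, RNA turnover and debranching, genome upkeep, kinases, and integration targets). None was called by limma, against 1.19% of all tested features, and 16 had an unadjusted p below 0.05 (38.1%, against 37.9% of all tested features). The log2 fold change was positive for 34 and negative for 8, with a median of 0.56 against 0.28 over all features. In 27 genes both dbp2null values were above both wild-type values (49.8% of all tested features were), and in 6 both were below (20.7%).

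The host gene with the largest difference in each role is given here. Among transcription factors TEA1, a Ty1 enhancer activator, had 34.9 and 43.6 FPKM in dbp2null, against 26.3 and 21.8 FPKM in wild type (log2 fold change 0.68, limma adjusted p = 0.090). Among chromatin factors SNF5, a subunit of the SWI/SNF remodeller, had 31.8 and 61.4 FPKM in dbp2null, against 21.3 and 15.7 FPKM in wild type (log2 fold change 1.23, limma adjusted p = 0.0872). In both genes dbp2null lay above wild type without overlap. In RNA turnover LSM1, a subunit of the complex that promotes decapping, had 193 and 92.7 FPKM in dbp2null, against 250 and 232 FPKM in wild type (log2 fold change -0.84, limma adjusted p = 0.259). XRN1, the cytoplasmic exonuclease of decapped RNA, was chosen after its values were seen and had 47.3 and 43.6 FPKM in dbp2null, against 79.4 and 71.0 FPKM in wild type (log2 fold change -0.71, limma adjusted p = 0.0863). Both genes were lower in dbp2null without overlap, and neither passed the test. The role did not move as one: of its 6 genes, 4 lay below wild type and 2 above it, all without overlap. The 2 higher genes were DBR1 and RTT103 (log2 fold changes 0.57 and 0.65, limma adjusted p = 0.0846 and 0.0932). In genome upkeep MRE11, a subunit of the double-strand break repair nuclease, had 19.1 and 31.0 FPKM in dbp2null, against 10.9 and 9.31 FPKM in wild type (log2 fold change 1.19, limma adjusted p = 0.0694). The kinase gene KSS1, of the filamentation pathway, had 43.2 and 41.3 FPKM in dbp2null, against 33.3 and 30.5 FPKM in wild type (log2 fold change 0.40, limma adjusted p = 0.170). The silencing factor SIR4, with which Ty5 integrase is known to interact, had 19.3 and 28.0 FPKM in dbp2null, against 13.5 and 8.84 FPKM in wild type (log2 fold change 1.02, limma adjusted p = 0.0865). None of these 3 genes overlapped between the genotypes and none passed the test.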

How the data were processed

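Ribosome-depleted total RNA was sequenced from 2 dbp2null and 2 wild-type libraries, and the authors deposited FPKM values in 1 table, with 3 blank rows left out here. Per the submitters' processing notes, CASAVA, TopHat, Cufflinks, edgeR and the build sacCer3 were used, with no version, order or role given. At best 13.8% to 15.2% of 500 low values per library were whole multiples of a common step, within 0.05 of a step, where chance gives 10%, so no reads could be recovered and depth is unknown.

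Frames were matched to the RefSeq R64 annotation by systematic name (91 of 91). Gag identity was computed with MAFFT 7.526. The test was limma (3.58.1, R 4.3.3) on log2(FPKM + 1) for the 6781 features averaging 1 FPKM or more, two-sided, with Benjamini-Hochberg adjustment, no covariate and a mean-variance trend; an adjusted p below 0.05 is a call. The scale understates changes of low rows. An exact permutation test of 2 against 2 libraries cannot go below 0.333, so all p-values rest on a spread pooled over features. The fit was tested on simulated data with the same spread in all 4 libraries. In the real data the difference between the 2 libraries of a genotype had an SD of 1.56 for dbp2null and 0.71 for wild type. The simulation therefore does not show how the fit behaves on these data. Sums of both frames of an element, and the crossed pairing, were chosen after seeing the data.

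Members, gene lists and tests were chosen with earlier results of these data known. Named frames are those of groups with at most 3 rows, the 3 highest of each other group, frames above 0 in all 4 libraries (up to 15), the 12 called frames with the largest change, and the host gene with the largest change in each role. Others named were chosen after their values were seen.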

Additional observations from a re-analysis of the deposited data

How the results depend on the processing

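The number of all features called, 81, was 8 with a pseudocount of 0.1 FPKM, 425 with 5 FPKM, 13 with a minimum mean of 10 FPKM, 13 with median centring, 5 with quantile normalization, 41 with no trend and 14 with both frames of an element summed. Leaving out 1 library gave 0 to 2512 calls: 2512 without dbp2null library 1, 90 without dbp2null library 2, 0 without wild-type library 1 and 6 without wild-type library 2. The 18 Ty frames called were 0 with a pseudocount of 0.1 FPKM, a minimum mean of 10 FPKM, median centring and quantile normalization, and 10 after rescaling to protein-coding genes. All 18 kept their call with a pseudocount of 5 FPKM, no filter and no trend. Leaving out 1 library gave 0 to 25 Ty calls, 0 without either wild-type library, 25 without dbp2null library 1 and 20 without dbp2null library 2. Host factor calls ranged from 0 to 7 (7 without dbp2null library 1), and element sums from 0 to 3 calls (3 without dbp2null library 1). Ty frames at 0 in both dbp2null libraries and above 0 in both wild-type libraries ranged from 0 to 1 (1 without wild-type library 1). In each case the cause was not tested.

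With the replicate number as a block (replicate block), 16 features and 0 Ty frames were called (adjusted p of the 18 frames 0.0689 to 0.0837). The labels give replicate numbers and name no batch. Deviations of same-numbered libraries correlated at -0.11 over 6781 features, which with 2 libraries per genotype cannot show whether they shared a batch. With crossed numbers 2667 features, 27 Ty frames and 25 host genes were called.

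Rescaling to protein-coding genes moved the median log2 fold change of all features to 1.08, against 0.28, and its protein-coding sum is low in dbp2null library 2 alone. It moved the log2 ratio of summed FPKM to 2.94 for Ty1 Gag, 0.64 for Ty1 Gag-Pol (against -0.48, a reversed sign), 1.71 for Ty2 Gag-Pol, 3.94 for Ty3 Gag-Pol, 1.87 for Ty4 Gag and 2.77 for Ty4 Gag-Pol. Leaving out 1 library, the Ty4 Gag-Pol ratio ranged from 0.87 (without dbp2null library 2) to 1.88 (without dbp2null library 1). The Ty1 Gag ratio was 0.015 over frames above 0 in every library. Ty1 Gag-Pol stayed below the median of all features, and in dbp2null library 1 its share of the protein-coding sum stayed below both wild-type libraries. Of the 76 Ty frames tested, 33 were negative in the main fit, 0 after this rescaling and 44 with quantile normalization. Among the named frames alone, those whose sign turned under this rescaling were YAR010C (0.72), YLR256W-A (0.69), YDR261C-D (0.20), YDR365W-B (0.32), YER138C (0.16), YGR027W-B (0.21), YJR027W (0.23), YJR029W (0.32), YLR157C-B (0.13), YLR227W-B (0.28), YML039W (0.23), YOL103W-B (0.19), YPL257W-B (0.20), YPR137C-B (0.30) and YPR158C-D (0.30). With quantile normalization the named frames whose sign turned were YAR010C (0.35), YLR256W-A (0.28), YHL009W-B (-0.53), YJL113W (-0.34), YJL114W (-0.78), YPL060C-A (-0.92) and YOR343W-B (-0.15). Leaving out 1 library gave -0.28 to 0.090 for YAR010C and -0.29 to 0.037 for YLR256W-A, positive without wild-type library 1.

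Each genotype has 2 libraries, the depth is unknown, and an exact 0 can be a failed estimate. Copies and overlapping frames share nearly all their sequence, so values of single frames are uncertain.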
